A study of Mus musculus with 15 samples.

Results

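The genes described here encode the mouse receptors for dopamine (Drd), serotonin (Htr), noradrenaline and adrenaline (Adra and Adrb) and acetylcholine (the muscarinic Chrm and the nicotinic Chrn genes). They were chosen by symbol, as autosomal protein-coding genes of the RefSeq annotation of GRCm38, which gave 48 of 20665 genes. Of the 455836 CpG positions in the table, 669 lay inside these genes (595) or within 2 kb of them (74), and they belonged to 45 of the 48 receptors. The other receptors were not analysed here. Of the 669 positions, 123 also lay inside another annotated gene and cannot be assigned to the receptor alone.

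Reduced representation bisulfite sequencing (RRBS) was run on micro-dissected dentate gyrus, the part of the hippocampus that holds the granule cells, from 15 female C57BL/6JRj mice aged 7.5 months. RRBS cuts DNA with a restriction enzyme, keeps short fragments, which are rich in CpG, converts them with bisulfite, and gives for each cytosine the percent of reads in which it was methylated. The standard group spent 6 months in standard cages and the enriched group 6 months in environmental enrichment, which is larger housing with objects to explore. The withdrawal group spent 3 months in enrichment and then 3 months in standard cages. Each group had 5 samples, taken here as separate mice although the labels do not spell this out, and p-values measure the spread between these samples. The labels name no batch.

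Dopamine, serotonin and noradrenaline reach the dentate gyrus in fibres from the midbrain and brainstem, and acetylcholine in fibres from the septum. Most receptors for them are G protein-coupled: the Gs-coupled ones raise cyclic AMP, the Gi-coupled ones lower it, and the Gq-coupled ones release calcium. The serotonin Htr3 genes and all nicotinic genes encode subunits of ion channels. Roles named with a gene below are general background and were not examined in these cells. Some, such as that of an autoreceptor, belong to neurons whose fibres reach the dentate gyrus from elsewhere. In mammalian DNA, CpG-rich gene starts are mostly unmethylated and CpG sites inside genes are mostly methylated.

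The DNA just upstream of 4 of these genes shows what RRBS reads here. The stretches below come from RefSeq (GRCm38.p6), are written 5′ to 3′ along the strand of the gene, and end at the base before the gene begins. Capitals mark the CpG pairs that had a value in the table. Adra2a (chr19:54045009-54045258, plus strand) is shown because it had the smallest p-value of any receptor against standard housing, and Adra2b (chr2:127362929-127363178, plus strand) because it had the lowest level of the 4. Drd2 (chr9:49340153-49340359, plus strand) and Htr6 (chr4:139075571-139075820, minus strand) are shown because methylation near their starts was higher than at most receptors.

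Adra2a: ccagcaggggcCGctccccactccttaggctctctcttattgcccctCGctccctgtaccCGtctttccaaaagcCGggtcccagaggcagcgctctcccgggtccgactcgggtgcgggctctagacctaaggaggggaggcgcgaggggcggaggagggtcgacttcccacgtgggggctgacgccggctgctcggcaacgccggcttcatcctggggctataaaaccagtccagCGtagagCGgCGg
Adra2b: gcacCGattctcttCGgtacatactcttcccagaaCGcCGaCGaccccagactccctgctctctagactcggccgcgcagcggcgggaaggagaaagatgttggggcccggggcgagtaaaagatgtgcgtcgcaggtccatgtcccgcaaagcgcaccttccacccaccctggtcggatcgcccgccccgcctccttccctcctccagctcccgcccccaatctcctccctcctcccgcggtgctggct
Drd2: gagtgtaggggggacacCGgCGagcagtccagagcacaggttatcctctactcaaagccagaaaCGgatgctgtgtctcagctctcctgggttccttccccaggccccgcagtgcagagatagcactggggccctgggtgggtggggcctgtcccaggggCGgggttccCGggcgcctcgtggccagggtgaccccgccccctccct
Htr6: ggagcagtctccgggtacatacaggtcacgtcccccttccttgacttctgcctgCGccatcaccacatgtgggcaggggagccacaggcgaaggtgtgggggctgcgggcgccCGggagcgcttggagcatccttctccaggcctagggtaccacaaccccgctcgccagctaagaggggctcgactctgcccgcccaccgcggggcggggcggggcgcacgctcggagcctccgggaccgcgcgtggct

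In the Adra2a stretch 7 of 22 CpG pairs were measured, and their mean methylation was 0.301%. In Adra2b 5 of 23 pairs were measured, with a mean of 0.196%. The 5 measured pairs of the 9 in Drd2 averaged 6.07% and ranged from 0% to 11.7%, and the 2 measured pairs of the 23 in Htr6 stood at 0% and 9.86%. The CpG pairs in capitals were thus low in all 4 stretches. RRBS reads start at cut sites, so the share of windows that hold one was counted. The site of MspI, the usual RRBS enzyme (the labels name only the kit), is CCGG, which reads the same on both strands. RefSeq windows from 250 bases before to 50 bases after the start held it in 23 of the 36 receptors with a window (63.9%) and in 63.5% of 20085 windows of autosomal protein-coding genes. For receptors only the window farthest upstream was counted, while the wider set was not reduced in this way. Of the 11 receptor windows with a measured CpG, 10 held CCGG, against 13 of the 25 without one.

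Across the 669 receptor sites the mean of the 3 group means was 28.3%, with 63.4% of sites under 20% methylation, 17.2% between 20% and 80%, and 19.4% over 80%. The 299663 CpG sites of all autosomal protein-coding genes averaged 26.6%, with 67.3% under 20% and 19.3% over 80%, shares close to those of the receptor sites. Sites near the gene start were mostly low, and sites farther along were mixed. For the 36 receptors whose strand could be taken from RefSeq, 318 sites within 2 kb of the start averaged 6.77% and 91.8% of them were under 20%. The 215 sites farther along averaged 56.0%, with 26.5% of them under 20% and 44.2% over 80%. The same split over all genes gave 5.98% near starts and 49.2% farther away. The start used throughout is the outer end of the gene in RefSeq. In 5 of the 36 receptors (Chrm5, Chrna4, Chrna9, Drd3 and Htr2b) the start of the RefSeq promoter window lies more than 2 kb inside it. With that start, an alternative chosen after seeing the data, 321 receptor sites within 2 kb averaged 8.07% and 212 farther away 54.8%.

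**Figure D1:**
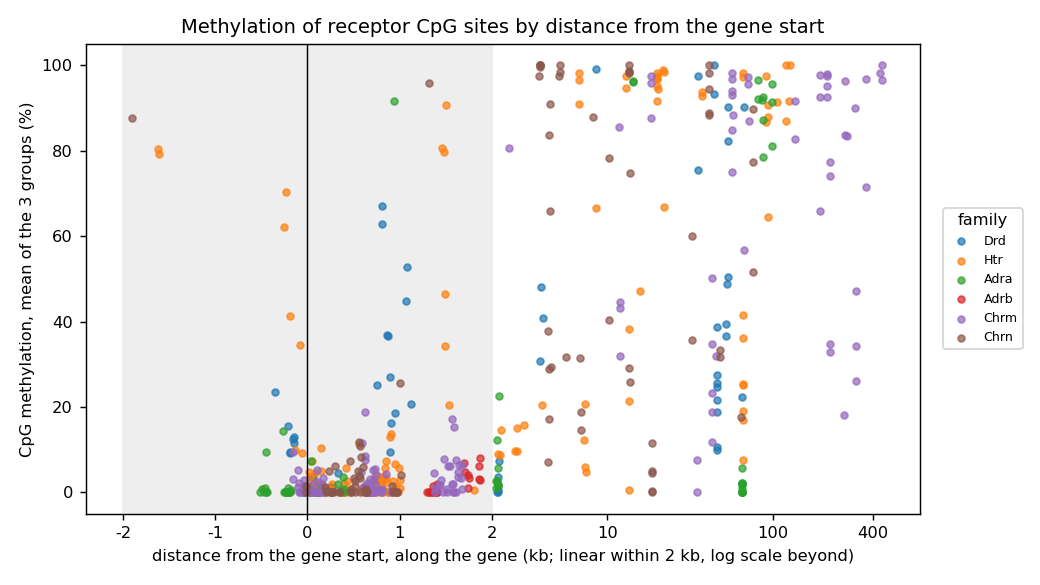
Methylation of receptor CpG sites (vertical axis, percent, mean of the 3 groups) against distance from the gene start along the gene (horizontal axis, kb, linear within 2 kb and logarithmic beyond), with 1 point per site colored by family. Points in the grey area within 2 kb of the start sit mostly near 0%, with an average of 6.77%, and those farther along average 56.0%.

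Within 500 bp either side of the start, 138 sites averaged 3.69%, and the 4 sites farther upstream averaged 61.8%. From 500 bp to 2 kb inside the gene 176 sites averaged 7.93%, from 2 to 20 kb 87 sites averaged 45.3%, and beyond 20 kb 128 sites averaged 63.4%. Among the 18 receptors with sites in both places, the distant sites were higher in 15, with a median over receptors of 3.29% near the start and 53.3% farther away. The split was widest in Htr1f, a Gi-coupled serotonin receptor, with 0.831% over 4 sites near the start and 94.6% over 7 sites farther along. In Htr5a, another Gi-coupled serotonin receptor, 8 sites near the start averaged 2.74% and 3 distant sites 95.3%. Chrna3, a ganglionic nicotinic subunit, showed 6.81% over 11 sites and 98.7% over 3 sites.

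Of 26 receptors with sites near the start, 20 had a mean there under 20%, and the other 6 were named after their values were seen. Adra1b, a Gq-coupled alpha-1 receptor, had a single site there at 91.6%, but 11 sites between 64710 and 65069 bp inside the gene were at 0% to 5.84%, while its other 12 sites were at 78.6% to 96.7%. Chrna10 also had a single site near the start, at 95.8%. Chrnb1 averaged 22.3% over 4 sites, with 87.7% at -1908 bp, upstream of the start, and 0% to 0.877% at the 3 sites 629 to 645 bp inside the gene. Drd2, the Gi-coupled dopamine receptor that antipsychotic drugs block, averaged 26.2% over 18 sites. Its 2 sites nearest the start, at -46 and -37 bp, were at 0%, while sites 809 and 815 bp inside the gene reached 67.0% and 62.8%. Htr6, a Gs-coupled serotonin receptor, averaged 30.8% over 12 sites, with 0% at 436 bp and 90.7% at 1501 bp inside the gene. Htr7, also Gs-coupled, averaged 25.4% over 15 sites near the start and 85.4% over 5 sites farther along. Upstream of the start, the 6 sites of Drd2 were at 0% to 23.6% and the 2 sites of Htr6 at 0% and 9.86%, and the highest sites of both lay inside the gene.

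The dopamine receptors ranged widely. Drd1 and Drd5, the Gs-coupled pair, averaged 15.9% over 8 sites and 1.99% over 4 sites. Among the Gi-coupled ones Drd4 averaged 2.18% over 6 sites, all more than 2 kb from the start, Drd2 26.0% over 19 sites and Drd3 48.8% over 23 sites. Over all 60 dopamine receptor sites the group means were 28.3% under standard housing, 29.3% under enrichment and 30.5% after withdrawal.

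Serotonin receptors held 176 sites in 12 genes, with means of 32.7% under standard housing, 33.5% under enrichment and 33.7% after withdrawal. Among the Gi-coupled group Htr1b, an autoreceptor on serotonin terminals, was lowest, with 0.971% over 26 sites and no site above 5.83%. Htr1a, the main somatic autoreceptor, averaged 8.33% over 9 sites, Htr5a 28.0% over 11, Htr1d 32.7% over 32 and Htr1f 60.5% over 11. The Gs-coupled Htr6, Htr7 and Htr4 averaged 32.1% over 13 sites, 40.4% over 20 and 78.5% over 20. Htr2a, the Gq-coupled target of psychedelic drugs, averaged 26.2% over 23 sites, and Htr2b had a single site at 66.6%. The channel subunits Htr3a and Htr3b averaged 32.5% over 6 sites and 20.2% over 4.

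Adrenergic receptors were lower. The 138 sites of the alpha receptors averaged 22.5% under standard housing, 21.1% under enrichment and 20.9% after withdrawal, and the 33 sites of Adrb1 and Adrb3 averaged 4.70%, 5.85% and 5.04%. The Gi-coupled alpha-2 receptors, which brake noradrenaline release, were all near 0: Adra2a 2.90% over 26 sites, Adra2b 1.12% over 15 and Adra2c 1.32% over 5. The Gq-coupled alpha-1 receptors ran from 10.2% over 34 sites in Adra1d through 40.4% over 35 in Adra1a to 48.1% over 23 in Adra1b. Adrb1, the beta receptor of heart and cortex, averaged 2.11% over 21 sites, and Adrb3, best known from fat tissue, 10.6% over 12.

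Among muscarinic receptors, with 154 sites and group means of 26.4%, 26.9% and 27.7%, the Gi-coupled Chrm4 was lowest at 3.95% over 24 sites and Chrm2 averaged 33.2% over 29. The Gq-coupled Chrm1, Chrm3 and Chrm5 averaged 18.2% over 13 sites, 27.3% over 77 and 69.5% over 11. All 11 sites of Chrm5 lay more than 2 kb from the outer end of the gene, but 5 of them lay within 2 kb of the start of its RefSeq promoter window, and these 5 averaged 88.7%.

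Nicotinic receptors had the highest mean of the families over all sites, with 108 sites in 15 genes and group means of 38.3% under standard housing, 36.9% under enrichment and 36.3% after withdrawal. Chrna5 stood at 0.856% over 7 sites, all near the start. Chrna7, the subunit of the homomeric alpha-7 channel of the hippocampus, averaged 17.7% over 25 sites, with 1.33% over 17 sites near the start and 52.5% over 8 farther away. Chrnb2, a partner of alpha-4 in the main brain receptor, averaged 47.5% over 12 sites, and Chrna4 itself had a single site at 88.0%. The muscle subunits Chrnd, Chrna1 and Chrng averaged 30.0% over 2 sites, 45.6% over 12 and 68.0% over 3, and Chrnb1 averaged 22.3% over its 4 sites. Chrna3 averaged 26.5% over 14 sites, Chrna6 26.9% over 7, Chrnb4 31.4% over 5, Chrna10 63.7% over 2 and Chrna2 69.4% at its single site. Chrna9, a cochlear subunit, and Chrnb3 were over 80%, with 80.8% over 7 sites and 88.3% over 6. Over the 45 receptors 15 averaged under 20%, 27 between 20% and 80% and 3 over 80%. Near and distant sites differed widely and their numbers differed between genes, so these means compare the sites read and not whole genes. The order of the families also depended on the sites: over complete sites, those with values from all 15 mice, dopamine receptors (9 sites) stood above nicotinic ones (24 sites) under standard housing, at 46.8% ± 3.11 against 44.8% ± 2.29, and after withdrawal, at 51.6% ± 4.30 against 44.1% ± 2.80, but not under enrichment, at 43.8% ± 4.78 against 45.6% ± 4.85 (SD, n = 5).

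**Figure D2:**
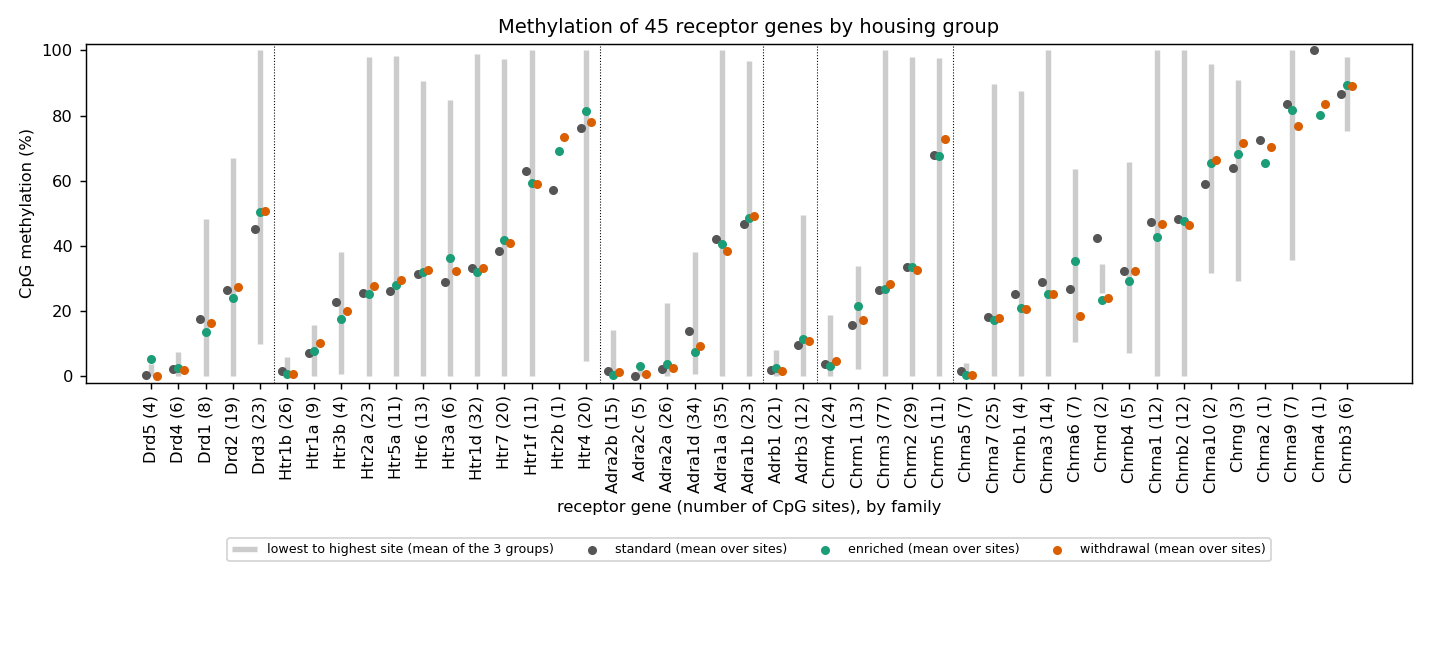
Mean CpG methylation (vertical axis, percent) of each of the 45 receptors (horizontal axis, with its number of sites), grouped by family and ordered by mean, with 1 point per housing group and a grey bar from the lowest to the highest site. The 3 points of a receptor mostly lie close together beside the differences between receptors, which run from 0.856% in Chrna5 to 88.3% in Chrnb3.

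The means so far use whichever mice had a value at a site, and the mice were not covered alike. Between 396 (standard mouse 1) and 655 (withdrawal mouse 4) of the 669 sites had a value in a mouse, with 554 ± 90.2 (SD, n = 5) under standard housing, 544 ± 46.4 under enrichment and 587 ± 44.8 after withdrawal. The files give percentages without read counts, so depth is unknown and no counting interval can be given. Comparisons between groups therefore used the 146 sites with a value in all 15 mice (21.8% of receptor sites, against 25.0% of all CpG sites). They lay in 30 receptors, 19 of which had at least 3. Over these 146 sites the mean was 37.0% ± 0.755 under standard housing, 37.5% ± 1.54 under enrichment and 36.8% ± 1.05 after withdrawal (SD, n = 5), and the ranges of the 3 groups overlapped. As the tissue is a mixture, a change in the share of a cell type and a change within cells cannot be told apart. Gene starts of 3 of 5 granule neuron markers had values, with means of 1.17% to 3.49%, but starts of the endothelial markers were also low, at 3.64% and 5.89%, so these levels do not identify the tissue.

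The 19 receptors with at least 3 complete sites ran from 0.671% to 95.3%, with a median of 37.3% (21.1% over the 8080 genes with as many sites). Htr1b, Adra2a, Chrm4, Adrb1, Adra1d and Chrna1 were under 20%, and Chrm2, Chrnb3, Chrm5 and Htr5a over 80%. Htr1b, the lowest serotonin receptor, stood at 1.05% ± 1.44 under standard housing, 0.473% ± 0.790 under enrichment and 0.494% ± 1.10 after withdrawal. Htr5a, the highest, stood at 93.3% ± 4.42, 97.1% ± 1.11 and 95.4% ± 3.64 in the same order (SD, n = 5). Among muscarinic receptors Chrm4 stood at 2.34% ± 2.38, 2.69% ± 0.919 and 2.69% ± 3.68, and Chrm5 at 94.3% ± 5.56, 87.9% ± 8.75 and 93.4% ± 3.34. Of the 146 sites, 16 were at 0% in every mouse and 1 was at 100%.

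By the median of the 3 within-group SDs, the 3 receptors with the widest spread were nicotinic, each with 3 sites; by the largest of the 3 SDs, Htr2a (16.6 points) and Htr7 (12.5) were above Chrnb4 (11.9). The median within-group SD over the 19 receptors was 4.53 points, against 2.91 points over all 8080 genes. These sets were not matched for level or number of sites: 31.6% of the receptors and 48.9% of all genes were under 20%. Whether receptors vary more than genes of like level was not tested. Chrna6, a subunit of receptors on dopamine terminals, had the highest median SD, 14.99 points: standard mice had 10.4%, 26.6%, 15.8%, 42.0% and 3.80%, enriched mice 17.2%, 24.4%, 19.2%, 56.1% and 39.1%, and withdrawal mice 14.3%, 26.0%, 0%, 13.3% and 28.4%. Chrnb4 ranged from 19.3% to 52.4% in standard, 24.1% to 46.3% in enriched and 32.0% to 43.9% in withdrawal mice. Chrna7 ranged from 33.7% to 79.6%, from 40.7% to 58.3% and from 48.2% to 55.5%. At each of these receptors the 3 groups overlapped.

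**Figure D3:**
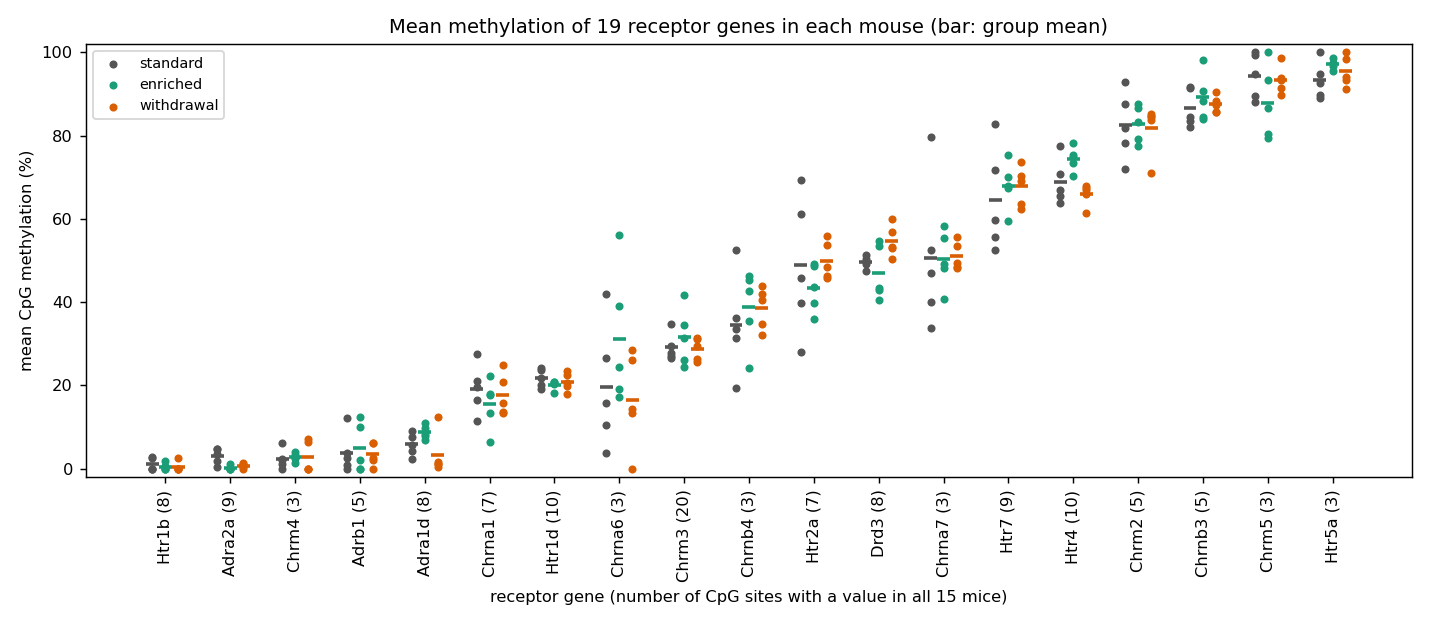
Mean CpG methylation (vertical axis, percent) of the 19 receptors with at least 3 sites complete in all mice (horizontal axis, number of sites in brackets), with 1 point per mouse, colored by group, and a bar at each group mean. Points of the 3 groups overlap at nearly every receptor; at Htr4 all 5 enriched mice lie above all 5 withdrawal mice.

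Housing was compared with limma, which fits the group means to all 15 mice for every gene or site at once and steadies each variance with those of the others. The fit ran on log2((percent + 5)/(100 − percent + 5)), called the log2 ratio below, with Benjamini-Hochberg adjustment across all genes or sites tested. At an adjusted p under 0.05 none of the 19 receptors passed in any of the 3 comparisons, where 0.0124% of the 8080 genes did for enriched minus standard and 0% for the other 2. The smallest adjusted limma p among receptors was 0.701 for enriched minus standard, 0.953 for withdrawal minus standard and 0.757 for withdrawal minus enriched.

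At an unadjusted limma p under 0.05 there were 2 of 19 receptors for enriched minus standard (10.5%, against 5.92% of all genes), 1 for withdrawal minus standard (5.26%, against 5.2%) and 3 for withdrawal minus enriched (15.8%, against 4.93%). The median difference over the receptors was 0.403 points for enriched minus standard, -0.452 for withdrawal minus standard and -0.175 for withdrawal minus enriched, and over all genes 0.0238, 0.267 and 0.203 points. Enriched mice were higher than standard mice at 11 of the 19 receptors, withdrawal mice higher than standard mice at 8, and withdrawal mice higher than enriched mice at 8. Over all genes the shares were 50.6%, 55.7% and 54.5%.

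**Figure D4:**
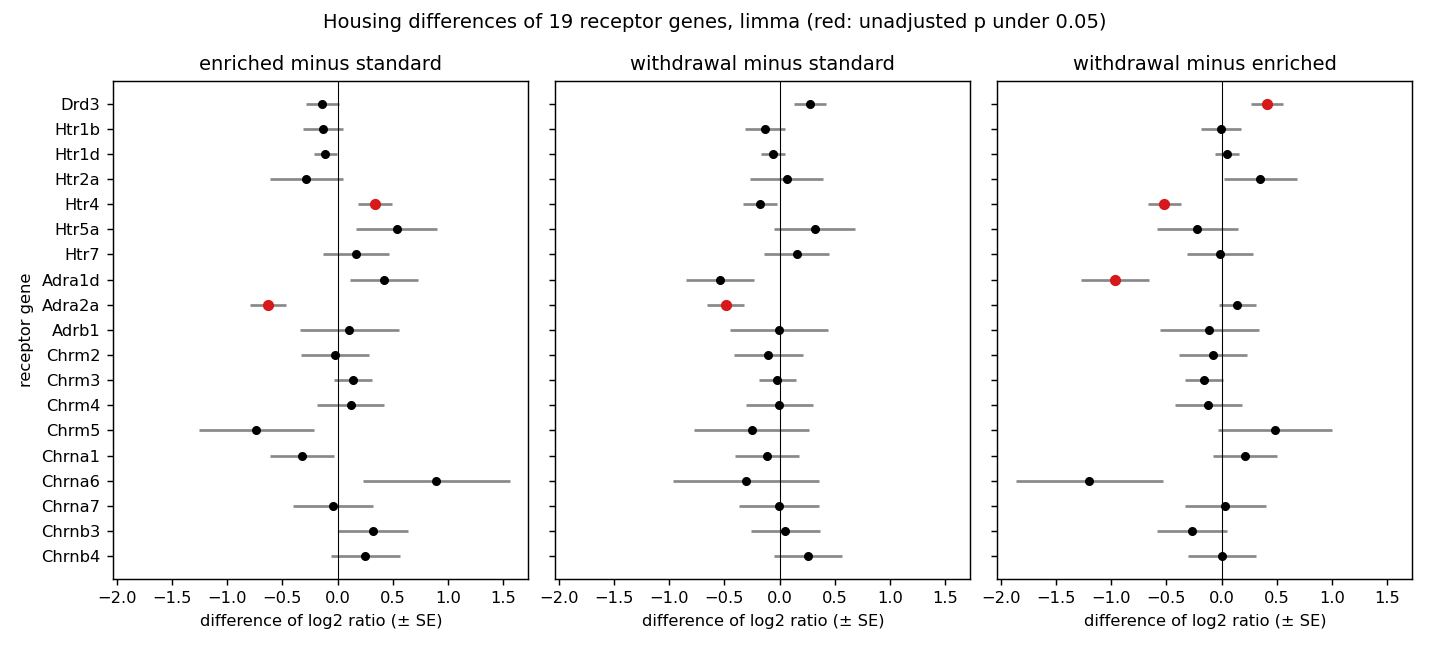
Differences between housing groups for the 19 receptors, as differences of the log2 ratio from limma (horizontal axis, with bars of 1 SE), 1 panel per comparison. Red points have an unadjusted p under 0.05: Htr4 and Adra2a for enriched minus standard, Adra2a for withdrawal minus standard, and Drd3, Htr4 and Adra1d for withdrawal minus enriched.

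Adra2a, the presynaptic alpha-2A receptor that noradrenaline itself acts on to limit its release, had the smallest p-value of any receptor in both comparisons against standard housing. The gene lies on chromosome 19 from 54045259 to 54048982 (mm10, plus strand), and its 9 complete sites all lie within 2 kb of the start. Standard mice had 4.63%, 0.347%, 3.52%, 4.68% and 1.85%, enriched mice 0%, 0%, 0%, 1.01% and 0%, and withdrawal mice 1.45%, 0%, 0.529%, 1.19% and 0.427%. Of the 5 standard mice, 4 lay above every other mouse, and standard mouse 2 lay among the rest. The log2 ratio of enriched minus standard was -0.63 ± 0.17 (SE; limma p 0.0019, adjusted 0.701), and that of withdrawal minus standard was -0.49 ± 0.17 (limma p 0.0106, adjusted 0.953). Both comparisons use the same standard mice, and neither passed after adjustment.

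The Adra2a difference came mostly from a single CpG. At position 54044804 on the minus strand, at -455 bp from the start and so outside the gene, standard mice had 41.7%, 0%, 24.0%, 26.3% and 16.7%. A single enriched mouse (9.09%) and a pair of withdrawal mice (13.0% and 10.7%) were above 0 there, and the other 7 mice of these groups were at 0%. The log2 ratio was -2.13 ± 0.67 for enriched minus standard (limma p 0.00501, adjusted 0.807) and -1.69 ± 0.67 for withdrawal minus standard (limma p 0.021, adjusted 0.961). With 1 mouse left out, the unadjusted limma p was at or above 0.05 in 0 of 15 fits for the first and in 5 for the second. Of the other 8 sites, 5 were at 0% in all 15 mice, and their mean was 0.665% ± 0.831 under standard housing, 0% under enrichment and 0.215% ± 0.297 after withdrawal (SD, n = 5). This CpG lies upstream of the printed stretch, whose measured pairs averaged 0.301%. Over all 26 Adra2a sites, those missing in some mice included, enriched mice were the highest group, with 3.89% against 2.30% in standard and 2.51% in withdrawal mice. When sites needed values from only 3 mice per group (the looser rule), the fit gave -0.0011 for enriched minus standard and -0.047 for withdrawal minus standard (limma p 0.997 and 0.849). Under that rule the mean of a mouse covers only the sites it had, so mice are compared over different sites.

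Htr4, a Gs-coupled serotonin receptor, was the receptor that separated the enriched from the withdrawal mice. It lies on chromosome 18 from 62323546 to 62503027, and its 10 complete sites are all inside the gene. Enriched mice had 73.4%, 74.8%, 75.4%, 70.3% and 78.3%, and withdrawal mice had 66.9%, 66.1%, 61.4%, 67.4% and 67.9%. Every enriched mouse lay above every withdrawal mouse. Groups that did not overlap, in either direction, were found at 1 of the 19 receptors and 0.755% of all genes in this comparison, and at 0 receptors for enriched minus standard (0.73% of all genes) and withdrawal minus standard (0.842%). Standard mice, with 63.7%, 70.8%, 77.5%, 65.4% and 66.9%, overlapped both groups. The log2 ratio of withdrawal minus enriched was -0.52 ± 0.15 (SE; limma p 0.00406, adjusted 0.757), and that of enriched minus standard was 0.34 ± 0.15 (limma p 0.0422, adjusted 0.83). The second unadjusted p was at or above 0.05 in 9 of the 15 fits with 1 mouse left out.

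Withdrawal mice were lower than enriched mice at 10 of 10 Htr4 sites, by 0.596 to 27.4 points. The widest difference was at 62372492 (plus strand), where enriched mice had 70.0%, 93.3%, 61.0%, 45.1% and 87.2%, and withdrawal mice 60.4%, 49.2%, 25.0%, 54.4% and 30.5%. Standard mice stood at 45.3% ± 12.2 there (SD, n = 5), near the withdrawal mean of 43.9% ± 15.4. At 62496491 (minus strand) all 5 enriched mice were at 100%, while withdrawal mice had 89.3%, 97.2%, 88.3%, 100% and 87.1%. The limma p for withdrawal minus enriched was 0.0248 at the first and 0.0166 at the second, both adjusted to 0.976. With 1 mouse left out, the unadjusted limma p was at or above 0.05 in 3 of 15 fits at the first and in 0 at the second. Over all 20 sites of Htr4, 10 of them missing in some mice, the means were 76.3% under standard housing, 81.4% under enrichment and 77.9% after withdrawal. Enriched was thus above withdrawal by a smaller gap. These 20 sites include the 10 complete ones, so the shared order is no separate check. On average the sites missing in some mice leaned the other way, with withdrawal slightly above enriched. Under the looser rule on missing values the fit gave -0.24 for withdrawal minus enriched (limma p 0.235).

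Adra1d, a Gq-coupled alpha-1 receptor (chromosome 2, 131545357 to 131562497), had 8 complete sites, 4 inside the gene near its lower coordinate and 4 outside beyond the other end. All 8 also lie in the non-receptor genes Gm39938 or Gm14285 and cannot be assigned to Adra1d alone. Standard mice had 7.67%, 9.05%, 4.13%, 2.36% and 5.71%, enriched mice 10.9%, 9.80%, 8.28%, 7.83% and 6.84%, and withdrawal mice 12.4%, 0.985%, 0.357%, 1.64% and 0.985%. Of the withdrawal mice, 4 lay below all others, and withdrawal mouse 1 was the highest of the 15. The log2 ratio of withdrawal minus enriched was -0.96 ± 0.31 (SE; limma p 0.00737, adjusted 0.9), and that of withdrawal minus standard was -0.54 ± 0.31 (limma p 0.101, adjusted 0.98). Without withdrawal mouse 1 the latter was -0.88 (limma p 0.000551, adjusted 0.572).

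At 131545877, inside Adra1d, enriched mice had 0%, 53.8%, 9.64%, 27.8% and 26.9%, and 8 of the other 10 mice were at 0%, the exceptions being standard mouse 2 (7.14%) and withdrawal mouse 1 (27.3%). The log2 ratio of enriched minus standard was 2.23 ± 0.76 (limma p 0.00873, adjusted 0.876), and that of withdrawal minus enriched was -1.88 ± 0.76 (limma p 0.0232, adjusted 0.976). With 1 mouse left out, the unadjusted limma p was at or above 0.05 in 0 of 15 fits for the first and in 7 for the second. At 131545826, also inside Adra1d, standard mice had 36.4%, 28.6%, 0%, 0% and 37.1% and withdrawal mice 0%, 3.33%, 0%, 0% and 0%. Over all 34 sites standard mice were the highest group, with 13.8% against 7.60% in enriched and 9.30% in withdrawal mice, and the fit on sites missing in some mice gave 0.0073 for withdrawal minus enriched. The order of enriched above withdrawal was thus not kept with the other sites included.

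Drd3, a Gi-coupled dopamine receptor (chromosome 16, 43754015 to 43825982, plus strand), was highest in withdrawal mice over its 8 complete sites. Standard mice had 49.1%, 51.4%, 47.4%, 49.6% and 50.3%, enriched mice 42.9%, 43.4%, 53.4%, 40.5% and 54.6%, and withdrawal mice 60.1%, 53.2%, 56.9%, 50.3% and 53.1%. Enriched mice fell into 3 low and 2 high values, and the 2 high ones overlapped the withdrawal mice. The log2 ratio of withdrawal minus enriched was 0.41 ± 0.15 (SE; limma p 0.0137, adjusted 0.923), and that of withdrawal minus standard was 0.27 ± 0.15 (limma p 0.0822, adjusted 0.98). Withdrawal exceeded enriched at 7 of 8 sites, most at 43807193, 53178 bp inside the gene, with 68.0% ± 23.2 against 40.9% ± 9.98 in enriched and 42.6% ± 15.9 in standard mice (SD, n = 5). At the 3 complete sites near the start Drd3 stood at 11.6% ± 4.95 under standard housing, 12.1% ± 4.91 under enrichment and 17.3% ± 4.44 after withdrawal. Over all 23 sites the means were 45.2%, 50.3% and 50.8%, so withdrawal and enriched mice were then close and standard mice lowest. These 23 sites include the 8 complete ones, and at the other sites enriched mice were on average above withdrawal mice. Under the looser rule the fit gave 0.15 for withdrawal minus enriched and 0.56 for withdrawal minus standard (limma p 0.594 and 0.0597). Htr5a, next after Adra2a and Htr4 by p-value for enriched minus standard, had a log2 ratio of 0.54 ± 0.37 (limma p 0.167, adjusted 0.867). The fit under the looser rule gave -0.0747 (limma p 0.787), where mice are compared over different sites. Over all 11 Htr5a sites the group means were 26.2% under standard housing and 28.1% under enrichment, the direction of the main fit. Without standard mouse 1 the log2 ratio was 0.84 (limma p 0.0193, adjusted 0.738).

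Gene starts with at least 3 complete sites within 2 kb were available for 8 receptors: Adra2a, Adrb1, Chrm3, Chrm4, Drd3, Htr1b, Htr1d and Htr7. None passed an adjusted limma p of 0.05, nor did any of the 3609 starts tested (0%). At an unadjusted p under 0.05 there was 1 of 8 (Adra2a) for enriched minus standard, where 5.15% of all starts were, 1 (Adra2a) for withdrawal minus standard (4.77%) and none for withdrawal minus enriched (5.15%). For Adra2a, Adrb1, Chrm4 and Htr1b these are the same sites as in the comparison of genes. The start of Htr1d, a Gi-coupled serotonin receptor, stood at 2.98% ± 2.88 under standard housing, 0.702% ± 0.460 under enrichment and 2.42% ± 2.16 after withdrawal (SD, n = 5). Its log2 ratio was -0.45 ± 0.27 for enriched minus standard (limma p 0.114, adjusted 0.864). The start of Drd3 had a log2 ratio of 0.56 ± 0.30 for withdrawal minus standard (limma p 0.0845, adjusted 0.932), and that of Htr1b -0.13 ± 0.17 (limma p 0.437, adjusted 0.955).

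Of the 146 complete sites, 127 varied by at least 5 points over the mice and were tested singly. None passed an adjusted limma p of 0.05 in any comparison, and neither did any of the 100562 CpG sites tested (0%). At an unadjusted p under 0.05 there were 9 receptor sites for enriched minus standard (7.09%, against 5.15% of all sites), 6 for withdrawal minus standard (4.72%, against 4.42%) and 7 for withdrawal minus enriched (5.51%, against 4.3%), shares near those of all sites. Power for single sites of intermediate mean methylation was low: of 200 simulated sites shifted by 20 points in 1 group, 0 passed the adjusted test, and of 200 shifted by 40 points, 23 did. The shifted sites were drawn only from such intermediate sites. Of the 146 complete receptor sites 52.7% were under 20% and 26.0% over 80%, and recovery at such levels was not examined. The receptor sites at an unadjusted p under 0.05 in any comparison were 15 distinct sites in 12 receptors. The groups did not overlap at 1 receptor site for withdrawal minus standard (0.532% of all sites) and at none for enriched minus standard (0.458%) or withdrawal minus enriched (0.51%).

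The site without overlap lies in Chrm3, the Gq-coupled M3 receptor, at 10318007 of chromosome 13 (plus strand), 43055 bp inside the gene. Standard mice had 0%, 19.2%, 0%, 0% and 0%, enriched mice 0%, 30.0%, 31.0%, 0% and 61.5%, and withdrawal mice 28.1%, 27.3%, 33.3%, 30.0% and 23.5%. Withdrawal mice were close together and all above the standard mice, while enriched mice divided between 0% and 30% or more. The log2 ratio was 2.68 ± 0.85 for withdrawal minus standard (SE; limma p 0.00545, adjusted 0.961) and 1.82 ± 0.85 for enriched minus standard (limma p 0.0461, adjusted 0.914). Over its 20 complete sites Chrm3 stood at 29.1% ± 3.33, 31.7% ± 6.89 and 28.8% ± 2.64, with overlapping groups.

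At 136424370 of chromosome 4 (plus strand), 848 bp inside Htr1d, standard mice had 0%, 16.7%, 4.17%, 31.6% and 0%, and all 10 enriched and withdrawal mice were at 0%. The log2 ratio was -1.34 ± 0.52 against standard in both comparisons (limma p 0.0184, adjusted 0.913 and 0.961), and 2 of the 5 standard mice were at 0% too. In each comparison the unadjusted limma p was at or above 0.05 in 2 of 15 fits with 1 mouse left out. At 65000282 of chromosome 16, 105502 bp inside Htr1f, the standard mean was also the one that differed from the other 2, with 99.9% ± 0.294 under standard housing, 87.3% ± 13.9 under enrichment and 86.8% ± 13.6 after withdrawal (SD, n = 5). The groups overlapped at both sites, and both comparisons share the standard mice. The Htr1f site was named after its values were seen.

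**Figure D5:**
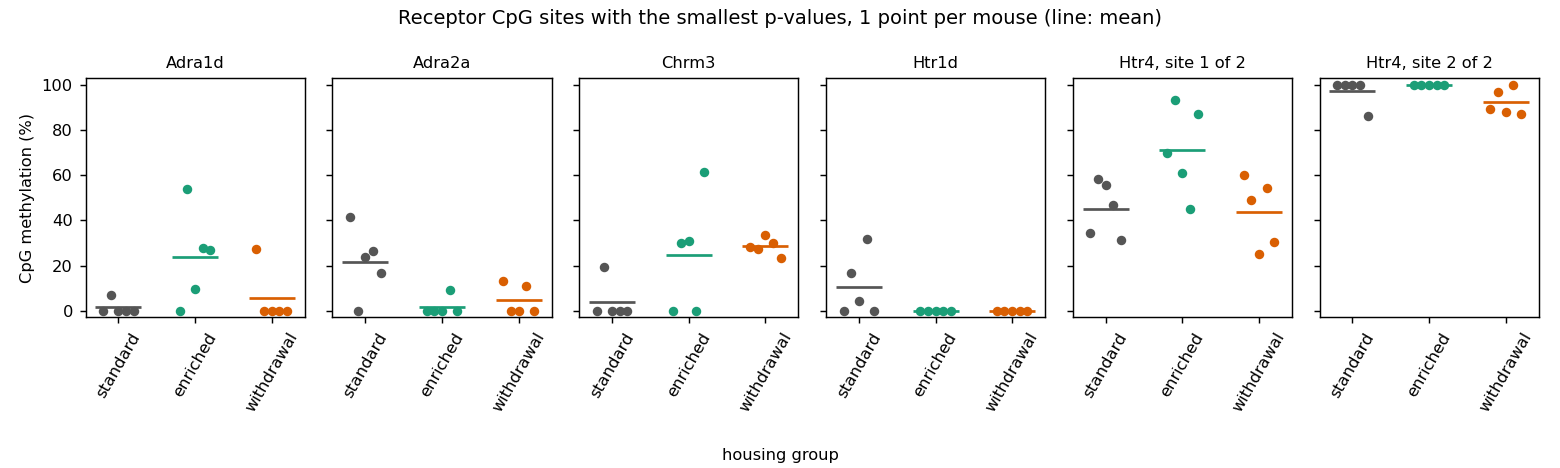
CpG methylation (vertical axis, percent) by housing group (horizontal axis) at the 6 receptor sites with the smallest p-values, 1 panel per site, 1 point per mouse and a line at the group mean. At the Chrm3 site withdrawal mice lie between 23.5% and 33.3% and standard mice at or below 19.2%; at the other 5 sites the groups overlap.

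Other genes of monoamine and acetylcholine signalling were read in the same way. The list held 23 genes for synthesis, transport, breakdown and histamine reception, of which 21 had CpG sites and 11 had at least 3 complete ones. None of the 11 passed an adjusted limma p of 0.05, where 0.0124%, 0% and 0% of all genes did in the 3 comparisons. At an unadjusted p under 0.05 0 were higher and 1 lower for enriched minus standard (3.23% and 2.69% of all genes), 0 and 0 for withdrawal minus standard (3.74% and 1.46%), and 2 and 0 for withdrawal minus enriched (3.29% and 1.63%). Slc6a2, the noradrenaline transporter (12 complete sites), accounted for the first and for 1 of the last, with 62.0% ± 2.92 under standard housing, 56.7% ± 1.74 under enrichment and 61.6% ± 3.43 after withdrawal (SD, n = 5). Its limma p was 0.0165 (adjusted 0.777) for enriched minus standard and 0.0247 (adjusted 0.99) for withdrawal minus enriched. Ddc, the decarboxylase that makes dopamine and serotonin, was the other, with 29.1% ± 13.3, 20.8% ± 4.31 and 35.4% ± 7.41 (limma adjusted p 0.923 for withdrawal minus enriched).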

How the data were processed

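The deposited table holds percent methylation per cytosine and strand, 1 column per mouse, with no read counts; the authors made these percentages with Trim Galore 0.4.0, cutadapt 1.8.1, Bismark 0.16.1 and methylKit 1.5.2 on build mm10, per the submitters' processing notes, which give no order or coverage filter. The table runs through the chromosomes in 2 passes. In the first, 100% of 40643 positions that fall in RefSeq promoter sequences are CpG, and in the second 0% of 118360 are, so only the first pass was used. Gene positions and 36 of 48 receptor strands came from RefSeq tables of GRCm38.p6; for the other 12 no distance to the start was computed. Exons were not used here.

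Group comparisons used limma 3.58.1 in R 4.3.3 (two-sided, variance trend, 3 group means over 15 mice, no covariate) on the log2 ratio with an offset of 5 points. Sites needed a value in all mice and a range of at least 5 points, and genes and gene starts (2 kb either side) at least 3 complete sites. Benjamini-Hochberg adjustment ran over all sites, genes or starts tested. On simulated data with 200 of 8080 genes shifted in the enriched group, enriched minus standard recovered 68, 158 and 197 of them at 10, 20 and 40 points, with 6, 10 and 14 false calls. With 200 of 100562 sites shifted it recovered 0, 0 and 23, with 0, 0 and 8 false calls. The shifted genes and sites were drawn from those of intermediate mean methylation, with independent normal noise. Recovery at low or high levels was not examined. Named are the 3 genes, starts and sites with the smallest p per comparison, the highest and lowest receptor of a family among those with 3 complete sites, and the 3 with the widest spread. Cell type markers were described by start methylation: other neurons (3 of 4 genes with values) 1.69% to 5.15%, oligodendrocytes (Olig2) 3.15%, astrocytes (Aldh1l1) 30.5%, microglia (P2ry12 and Aif1) 24.7% and 95.7%. The members and lists were chosen with earlier results of these data known. The alternatives changed the offset, scale, missing-value rule, range filter, site minimum, windows, replicate block and each mouse in turn.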

Additional observations from a re-analysis of the deposited data

Results flagged for a closer look

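A single mouse stood far from the other 4 of its group (by the Dixon ratio of the gap to the range) in 11 of 72 group values examined. In 7 of the 11 the other 4 mice were all at 0% or all at 100%, where any other value is picked out, so the usual chance rate of about 1 in 20 bears only on the other 65 group values, of which 4 were picked out. The Adra1d and Adra2a values of a gene and of a site in it share mice. Withdrawal mouse 1 stood at 12.4% for Adra1d, where the other withdrawal mice reached at most 1.64%, and at 27.3% for the Adra1d site 131545877, where the others were at 0%. Withdrawal mouse 3 was the low one for Chrm2 (70.9%, next 83.7%) and for Htr4 (61.4%, next 66.1%), and withdrawal mouse 4 the high one for Htr1b (2.47%, others 0%). Enriched mouse 4 was the only enriched mouse above 0% for Adra2a, with 1.01% for the gene and 9.09% at the site 54044804, and enriched mouse 1 was the low one for Htr1d (18.2%, next 20.4%). Standard mouse 2 was the only standard mouse above 0% at the Adra1d site 131545877 (7.14%) and at the Chrm3 site 10318007 (19.2%). Standard mouse 5 had 86.2% at the Htr4 site 62496491, where the other standard mice had 100%.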

How the results depend on the processing

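Under 23 alternative settings, 0 receptor sites, genes or starts passed an adjusted limma p of 0.05; the smallest was 0.107, for Adra1d in withdrawal minus enriched without withdrawal mouse 1. Counts at an unadjusted p under 0.05 moved more. With sites valued in at least 3 mice of every group, 506 receptor sites entered and 19, 29 and 20 passed for enriched minus standard, withdrawal minus standard and withdrawal minus enriched (3.75%, 5.73% and 3.95%, against 4.67%, 4.3% and 4.18% of all sites); 1 of 34 receptors passed for withdrawal minus enriched (2.76% of all genes), and 2, 2 and 1 of 17 starts (5.05%, 4.26% and 4.35% of all starts). In that setting Htr5a turned from 0.54 to -0.0747 for enriched minus standard and Adra1d from -0.96 to 0.0073 for withdrawal minus enriched. Adra2a gave -0.0011 for enriched minus standard. More sites and partly missing values enter there, and the mean of a mouse covers only the sites it had. Sites inside genes only gave 1 of 17 receptors for enriched minus standard (5.97% of all genes) and 0 for withdrawal minus standard (5.19%). For withdrawal minus standard, an offset of 1 point gave 2 of 19 receptors (5.19% of all genes), and at least 1 site gave 2 of 30 (5.01%). With 1 mouse left out the site counts ran from 5 to 9, 2 to 11 and 3 to 8 of 127. The shares of all sites ran from 4.79% to 5.61%, 4.39% to 4.94% and 4.23% to 4.86%. The receptor counts ran from 1 to 3, 1 to 2 and 3 to 3 of 19. The shares of all genes ran from 5.35% to 6.25%, 4.47% to 5.47% and 4.48% to 5.45%. The start counts ran from 1 to 2 of 8 for enriched minus standard, against 4.77% to 6.1% of all starts. They ran from 1 to 1 for withdrawal minus standard and 0 to 1 for withdrawal minus enriched. The main fits of these 2 comparisons gave 4.77% and 5.15% of all starts. The lowest and highest site counts came without standard mouse 5 or enriched mouse 1 (5), without withdrawal mouse 3 (2) and standard mouse 5 (11, or 8.66%, against 4.81% of all sites), and without enriched mouse 2, 4 or 5 (3).

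Samples of different groups share replicate numbers in the labels. Same-numbered mice did not deviate together over single sites (correlations -0.0177 to 0.0192 over 15 pairs, and 3 of 15 mice correlated best with their own number). Values of single sites are noisy and their depth is unknown, so this check cannot exclude a pairing by number. With the replicate block, 1 receptor in place of 2 passed an unadjusted p under 0.05 for enriched minus standard (6.04% of all genes). After adjustment 0 receptors and 0% of all genes passed. Depth is unknown, so values that rest on few reads cannot be told from well-covered ones.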

Other observations

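At 41 CpG sites in 20 receptors both strands had values, giving 459 pairs of strand values in the same mouse. Exactly equal values were found in 245 pairs, and in all 245 both strands were at 0% or both at 100%. The strands of the other 214 pairs differed by a median of 14.6 points (quartiles 7.31 and 24.96). The widest difference between the means of the strands at a CpG was 14.99 points. In enriched mouse 1 the Chrm3 sites at 10359467 and 10359490 were both at 100%, where Chrm3 sites near the start averaged 2.25% over the mice; these sites were singled out after their values were seen.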
